A study of Drosophila melanogaster with 4 samples.

Results

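For green fluorescent protein (GFP)-tagged Notch, 4198 peaks were called in larvae of *Drosophila melanogaster*. Of these, 263 lay on chromosome 4, in sequence around the centromeres or on the unplaced sequence U. These 263 peaks made up 6.27% of the list (95% exact binomial interval 5.55 to 7.04%). They were chosen by position alone and with no limit on the score. All peaks of chromosome 4 (75) were taken, with those of the heterochromatic (Het) scaffolds 2LHet, 2RHet, 3LHet, 3RHet, XHet and YHet (73 peaks) and of the unplaced sequence U (38 peaks). To these were added the peaks of 4 arm ends next to the centromere (77 peaks), which had their midpoint beyond 22 Mb on 2L, beyond 23.5 Mb on 3L, up to 1.0 Mb on 3R or beyond 21.4 Mb on X. The 2807 peaks on the rest of 2L, 3L, 3R and X, called the comparison arms here, served for comparison.

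Notch is a transmembrane receptor. On activation its intracellular part is cut free, enters the nucleus and joins the DNA-binding protein Su(H) and the co-activator Mastermind at target genes. Pericentromeric heterochromatin is compact, rich in satellite repeats and transposable elements, poor in genes, and bound by the heterochromatin protein HP1a. Chromosome 4 is a small autosome that also carries HP1a along most of its length, yet its genes are expressed, and the protein POF binds them. The RefSeq gene table of release 6 lists 114 genes on it, 80 of them protein coding. Among them are ci, which encodes the transcription factor of the Hedgehog pathway, pan and lgs, which act in the Wingless pathway, and ey, toy and sv, which encode Pax family transcription factors.

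The study precipitated chromatin of whole wandering third-instar (L3) larvae with the rabbit polyclonal GFP antibody ab290 (2 ChIP libraries) and sequenced it beside input DNA (2 libraries). All 4 libraries came from the strain labelled Notch-GFP, with the genotype PBac{y[+]-attP-3B}VK00033, a transgene of the Notch genomic coding region and unknown sex. The labels' growth protocol names y; bw cn sp flies in place of this strain, and the labels list no untagged larvae, so binding that does not depend on tagged Notch cannot be told apart. The authors deposited 1 peak list for the series, on release 5 of the genome, with a first base, a last base and a score for each peak. Not given in the sources used here are the statistic behind the score, any pooling of replicates, the handling of reads that match several places, and library depth. The list holds no replicate error, and no test over libraries could be made. Every difference below is therefore a description of this list. Intervals are exact at 95%. They cover only the error of counting, with each peak taken as independent of the others. A place without a peak was not called at an unknown depth. No peak was assigned to a gene, because the gene table is on release 6, and no sequence is shown, because none of release 5 was used here.

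Peaks of all 4 classes reached high scores, and 24 of the 100 highest scoring peaks of the list were among the 263. The median score was 74.6 on the Het scaffolds (interval 29.9 to 108), 56.6 at the arm ends (25.3 to 84.0), 53.8 on chromosome 4 (35.8 to 128) and 47.1 on U (28.5 to 79.3), against 24.9 on the comparison arms (23.9 to 26.2). The intervals of the 4 classes overlapped each other, and only that of the arm ends reached the interval of the comparison arms. Of the 263 peaks, 127 (48.3%, 42.1 to 54.5%) scored in the top 25.0% of the list, which begins at a score of 61.3. A further step up, 80 of them (30.4%, 24.9 to 36.4%) were in the top 10.0%, which begins at 126. Chromosome 4 had the largest share there, with 29 of 75 peaks (38.7%, 27.6 to 50.6%), while the Het scaffolds had 24 of 73 (32.9%), U had 10 of 38 (26.3%) and the arm ends had 17 of 77 (22.1%).

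**Figure D1:**
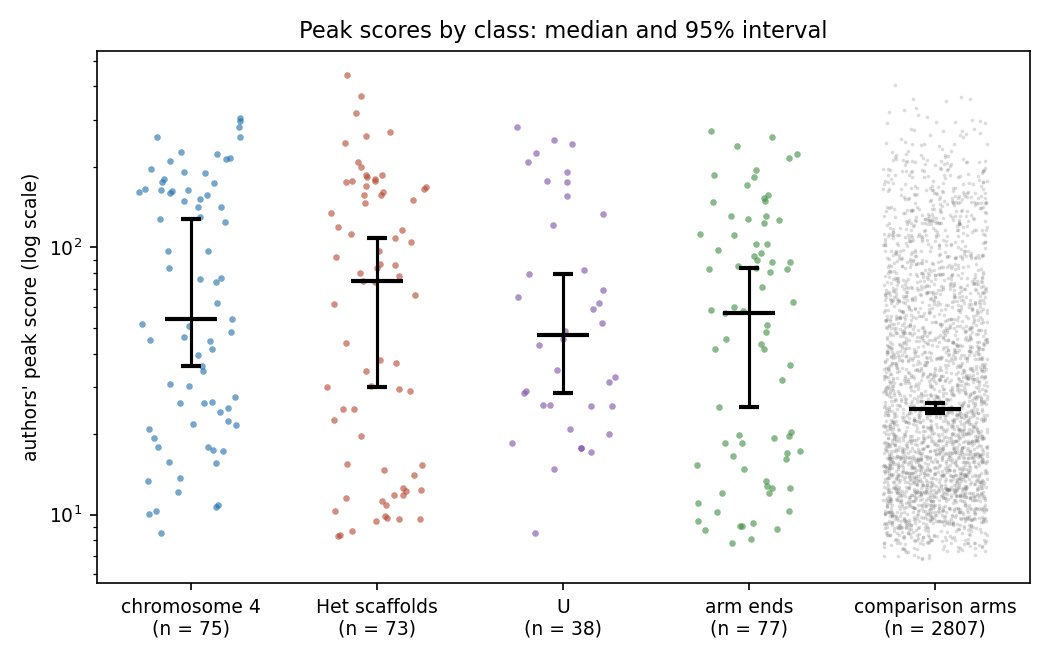
Authors' score of each peak (log axis) by class. Points are single peaks, and the bar and whiskers are the median and its exact 95% interval. The medians of the 4 classes lie between 47.1 and 74.6, above the 24.9 of the comparison arms, and the Het scaffolds have few peaks of middle score.

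Peaks were crowded on chromosome 4 and sparse on the scaffolds. Chromosome 4 had 55.6 peaks per Mb (exact Poisson interval 43.8 to 69.7), the arm ends 19.1 (15.1 to 23.9), the Het scaffolds 8.71 (6.82 to 10.9) and U 3.82 (2.70 to 5.24), against 29.9 (28.8 to 31.1) on the comparison arms. Lengths were taken from the last called peak of each sequence, which can overstate the density. They also include any unsequenced gaps, whose extent was not used here. Peaks covered 4.73% of chromosome 4 and 1.63% of the arm ends, but 0.651% of the Het scaffolds and 0.189% of U, against 1.86% of the comparison arms.

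Because wider peaks scored higher in every class, scores were next compared at matched width. Spearman's rho between score and width, given as a description across peaks, was 0.816 on chromosome 4, 0.715 on the Het scaffolds, 0.783 on U and 0.735 at the arm ends, against 0.766 on the comparison arms. The classes also differed in width. The median was 763 bp on chromosome 4 (interval 556 to 916 bp), 738 bp at the arm ends (550 to 1024 bp), 581 bp on the Het scaffolds (510 to 758 bp) and 441 bp on U (348 to 533 bp), against 489 bp on the comparison arms (476 to 507 bp). For each peak, the percentile of its score was therefore taken among the comparison-arm peaks within 10% of its width, of which there were at least 23 and a median of 267.

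**Figure D2:**
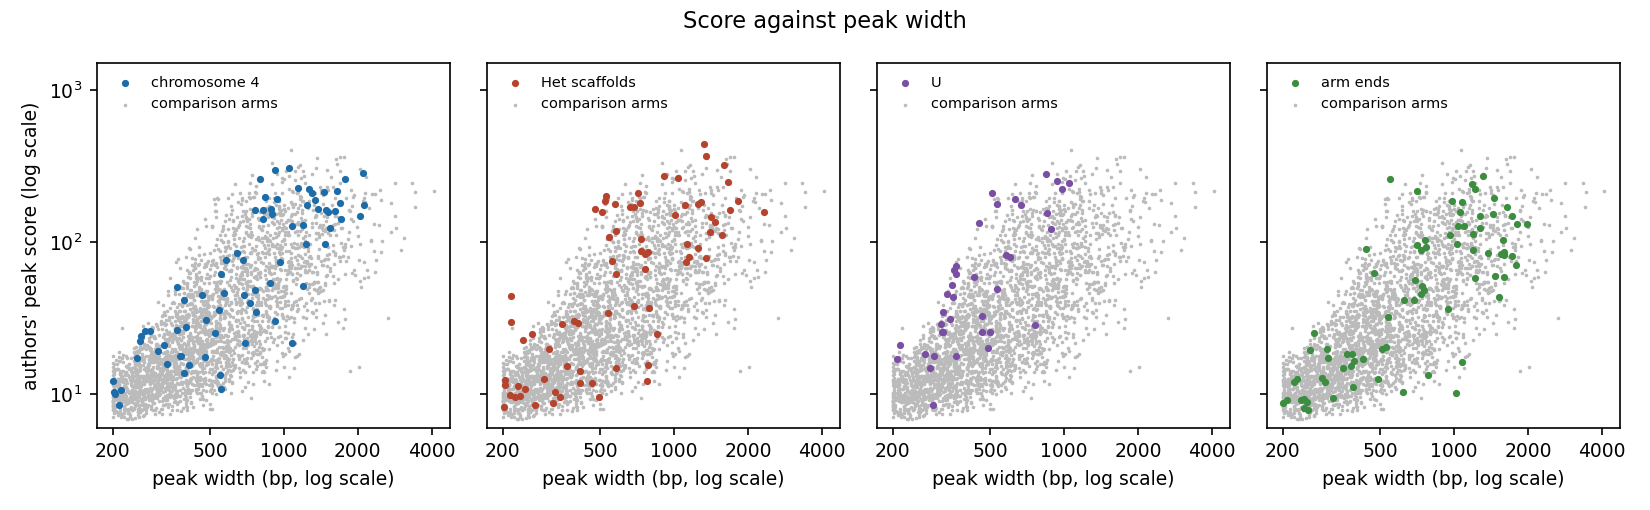
Authors' score against peak width, both on log axes, for each class (coloured) over the comparison arms (grey). Peaks of U follow the upper edge of the grey cloud, with a median width of 441 bp, while those of the arm ends, with a median width of 738 bp, run through its middle.

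Matching on width changed the order of the classes. U, which had the lowest median score of the 4, had the highest median percentile, 93.2% (interval 84.6 to 97.0%). Chromosome 4 followed with 74.8% (62.6 to 82.5%) and the Het scaffolds with 73.2% (56.5 to 81.4%), while the arm ends, with 53.5% (42.1 to 66.2%), were close to the 50.1% of the comparison arms themselves. The intervals of U, chromosome 4 and the Het scaffolds lay above 50%, and that of the arm ends included it. Counted as peaks above the percentile of 50, there were 33 of 38 on U (86.8%, 71.9 to 95.6%), 56 of 75 on chromosome 4 (74.7%, 63.3 to 84.0%), 51 of 73 on the Het scaffolds (69.9%, 58.0 to 80.1%) and 41 of 77 at the arm ends (53.2%, 41.5 to 64.7%). A percentile of 90 or more was reached by 22 peaks of U (57.9%, 40.8 to 73.7%), 20 of chromosome 4 (26.7%, 17.1 to 38.1%), 21 of the Het scaffolds (28.8%, 18.8 to 40.6%) and 10 of the arm ends (13.0%, 6.41 to 22.6%), against 10.1% of the comparison-arm peaks.

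**Figure D3:**
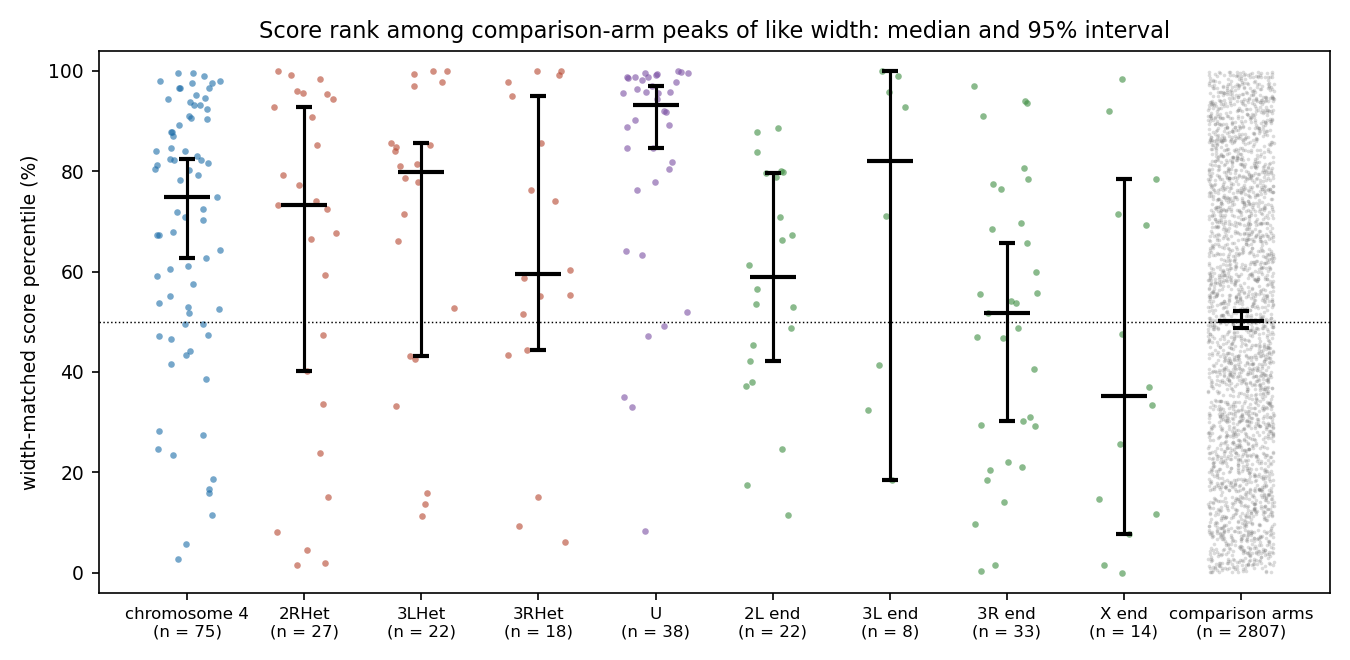
Percentile of each peak's score among comparison-arm peaks within 10% of its width, by sequence, for sequences with 8 or more peaks. Points are single peaks, bars and whiskers are the median and its exact 95% interval, and the dotted line marks 50%. U stands highest with a median of 93.2%, and the end of X lowest with 35.1%.

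The classes parted among wide peaks rather than narrow ones, except on U. Up to 300 bp, the median score was 14.8 on chromosome 4 (n = 10, interval 10.0 to 26.1) and 11.4 on the Het scaffolds (n = 14, 9.61 to 24.9), close to the 11.8 of the comparison arms (n = 546). Over 1200 bp it was 174 on chromosome 4 (n = 19, interval 149 to 214) and 162 on the Het scaffolds (n = 15, 116 to 246), against 92.7 on the comparison arms (n = 248, 80.6 to 106), and every one of the 19 wide peaks of chromosome 4 was above that last median. Over 1200 bp the arm ends did not part in this way, with 103 (n = 21, 81.1 to 148). Over 800 and up to 1200 bp they had 113 (n = 13, 36.3 to 183) against 69.4 on the comparison arms. Over 500 and up to 800 bp they had 48.4 (n = 17, 32.0 to 92.8) against 36.1, and both intervals included the comparison-arm median. Up to 300 bp, and over 300 and up to 500 bp, the arm-end medians (9.30 and 17.0) lay below those of the comparison arms (11.8 and 19.3). On the Het scaffolds the gap opened over 500 and up to 800 bp, where the median was 86.6 (n = 23, 61.3 to 169) against 36.1 on the comparison arms (n = 696, 32.8 to 40.04). U held no peak over 1200 bp. Its 18 peaks over 300 and up to 500 bp had a median of 33.8 (25.7 to 58.8), with 17 of them above the 19.3 of the comparison arms (n = 896), and all 6 of its peaks over 800 bp, with a median of 234, scored above the 69.4 of comparison-arm peaks over 800 and up to 1200 bp (n = 421).

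Chromosome 4 carried peaks with a score over 100 in each of 4 equal lengths, with the strongest near the right end of the sequence. Such peaks were not continuous, and from 888368 to 1047237 no peak scored above 50.6. The highest score, 306, was that of the peak from 1296907 to 1297952 (1046 bp, percentile 99.0%), which ranked 22 in the list. The next was 298, from 1316195 to 1317113 (919 bp, percentile 99.6%). Both belong to a run of 8 peaks over the last 57.4 kb, from 1290696 to 1348066, that also holds the peak from 1290696 to 1291491 (score 259, rank 49). Of these 8 peaks 5 scored over 100, while 578 of the 4198 peaks of the list scored 100 or more. The median percentile of the 8 was 94.8%. These 8 peaks were singled out after their values were seen. Without them the other 67 peaks of chromosome 4 had a median score of 50.6 and a median percentile of 70.8%, so the class stood above the comparison arms without that run.

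The other leading peaks of chromosome 4 were spread out. A peak of 2102 bp from 199629 to 201730 scored 282 (percentile 96.6%), and one of 1769 bp from 334303 to 336071 scored 258 (percentile 90.4%). Toward the right, the peaks from 1081357 to 1082497, from 1202074 to 1203338 and from 1047536 to 1049176 scored 227, 224 and 215. The widest peak of the chromosome, 2129 bp from 679986 to 682114, scored 174, and at a percentile of 70.4% it was less prominent for its width. The lowest score was 8.53, from 582442 to 582654. When the chromosome was cut into 4 equal lengths, 9 of 22, 5 of 16, 5 of 15 and 11 of 22 peaks scored over 100. In the whole list 578 of 4198 peaks scored 100 or more. The median percentiles of these lengths, in order along the chromosome, were 75.5%, 63.2%, 78.2% and 81.3%, with overlapping intervals.

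**Figure D4:**
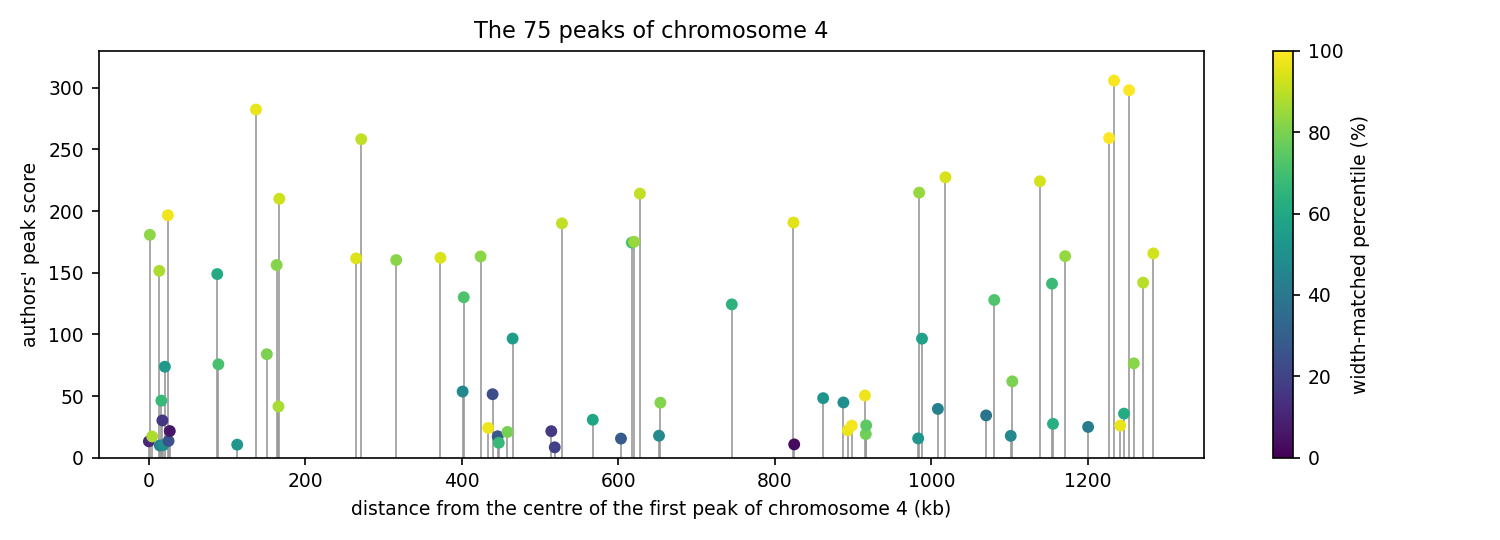
Authors' score of the 75 peaks of chromosome 4 against distance in kb from the centre of the first peak, coloured by width-matched percentile. Each of 4 equal lengths of the chromosome holds peaks with a score over 100, and the last 57.4 kb hold the 2 highest, with scores of 306 and 298.

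Peaks of chromosome 4 were unevenly spaced, with wide stretches that held no called peak. A peak of chromosome 4 had its nearest neighbour at a median of 4.38 kb (interval 1.702 to 6.03 kb), against 5.48 kb (5.00 to 5.96 kb) on the comparison arms. When peaks with at most 10 kb between them were joined, there were 33 groups, 14 of them single peaks, and 61 of the 75 peaks had company. The comparison arms were not grouped in this way, so the groups are not shown to be particular to chromosome 4. A neighbour within 5 kb was found for 54.7% of its peaks, 48.2% of comparison-arm peaks and 53.8% of those on X outside its end. The largest group held 12 peaks over 27.5 kb, from 63558 to 91082. Its median score was 26.0 and its median percentile 51.7%, so the densest window of 50 kb on the chromosome (50001 to 100000) was not a window of strong peaks. Windows of 6 peaks came next, and they differed. The 6 peaks between 1300001 and 1350000 had a median score of 109, and the 6 between 950001 and 1000000 had a median of 26.2 and none above 50.6, yet their median percentile was 87.4% because they were narrow. The longest stretches with no called peak were 97.2 kb (231194 to 328339) and 90.3 kb (717794 to 808122), and of 27 windows of 50 kb 4 had none.

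Joining peaks within 1 kb raised the median score of chromosome 4 from 53.8 to 110.5, since weak peaks were absorbed into strong ones. The median percentile, taken among comparison-arm peaks joined likewise, was 78.1%, against 74.8% before. On the Het scaffolds the same step gave 110.0 and 78.6%, against 74.6 and 73.2% before. No median score of joined comparison-arm peaks was computed.

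On the Het scaffolds, peaks fell into a strong set and a weak set with few between them, though not on every scaffold. Of the 73 peaks 40 (54.8%) scored over 60, against 23.9% of the comparison-arm peaks. The weak set, 22 peaks (30.1%) under 20, was a smaller share than the 41.4% of the comparison arms. The middle range, from 20 to 60, held 11 peaks (15.1%), against 34.7% of the comparison-arm peaks. It held 2 of 27 peaks on 2RHet and 3 of 22 on 3LHet, each with 8 under 20. On 3RHet it held 4 of 18, as many as the 4 under 20. On chromosome 4 that middle range held 23 of 75 peaks (30.7%), on U it held 16 of 38 (42.1%), and at the arm ends it held 14 of 77 (18.2%). Most of the weak set lay beside a strong peak. Of the 22 scaffold peaks under 20, 17 (77.3%, interval 54.6 to 92.2%) had a peak with a score over 100 within 2.5 kb, against 55 of 1161 such peaks (4.74%, 3.59 to 6.12%) on the comparison arms. The 17 include the weak peaks inside the scaffold pairs of strong peaks described below, 5 of them from a single place on 3LHet. They are thus clustered and not independent, and the 2 observations share peaks. On chromosome 4 it was 5 of 15 (33.3%, 11.8 to 61.6%), at the arm ends 4 of 28 (14.3%, 4.03 to 32.7%) and on U 1 of 6. The short median distance to the nearest peak on the scaffolds, 1.77 kb (1.28 to 3.81 kb), goes with these neighbours, and it was 20.6 kb (8.90 to 48.7 kb) after peaks within 1 kb were joined.

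The scaffolds held some of the strongest peaks of the whole list. The peak from 369614 to 370941 on 2RHet (1328 bp) scored 442 and ranked 2 of 4198, and no comparison-arm peak within 10% of its width scored as high. The same was true of the peak from 1396128 to 1397478 on 3LHet (1351 bp, score 367, rank 4). The next were from 471389 to 472980 on 2RHet (score 318), from 1523649 to 1524560 on 3RHet (score 270, percentile 99.2%) and from 1285038 to 1286078 on 3LHet (score 262, percentile 97.1%). These 5 peaks lay on 3 scaffolds, and each was between 912 and 1592 bp wide. The lowest score, 8.28, belonged to a 203 bp peak on 2RHet (471031 to 471233) that directly precedes the one scoring 318.

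Most scaffold peaks lay on 3 scaffolds. The 27 peaks of 2RHet had a median score of 83.4 (interval 15.5 to 157) and a median percentile of 73.2%. The 22 of 3LHet had 71.2 (12.5 to 175) and 79.9%, and the 18 of 3RHet had 69.6 (24.7 to 180) and 59.5%. The intervals of all 3 were wide and overlapped in both measures, which does not show that the scaffolds were alike. The densest scaffold window held 7 peaks on 3LHet (1950001 to 2000000), and only 2 of them were strong, as described below.

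The remaining scaffolds held 6 peaks in all, with scores between 8.42 and 157. XHet held 3, from 252 to 618 (score 15.4), from 75060 to 76633 (1574 bp, score 112) and from 84613 to 84884 (score 8.42). The strongest of these had a percentile of 51.3%, an ordinary score for its width. 2LHet held 2. The wider of them, from 32687 to 35014, was with 2328 bp the widest of all 263 peaks and scored 157 (percentile 56.5%). The other, from 168995 to 169237, scored 22.6 at a width of 243 bp, which put it at 98.5%. YHet, from the Y chromosome, held a single peak from 137076 to 137339 with a score of 24.9 (264 bp, percentile 98.0%).

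U strings together pieces whose place on the chromosomes was unknown, so distances along it are not distances in the genome. Its peaks were narrow and high for their width, with none over 1047 bp. The strongest scored 282 (5630625 to 5631470, 846 bp, percentile 99.6%), followed by 251 (6904230 to 6905167, 938 bp, percentile 97.8%) and 244 (5687414 to 5688460, 1047 bp, percentile 95.5%), the last of which was also the widest. The lowest score, 8.51 from 1079081 to 1079373, lay between a pair of strong peaks that is taken up below, in the densest window of U (3 peaks, 1050001 to 1100000). Counted along U as it is strung together, its peaks had their nearest neighbour at a median of 44.4 kb (14.1 to 75.3 kb). A neighbour within 5 kb was found for 7 of the 38.

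The medians of the 4 arm ends differed. The end of 3L had the highest median score, 164 (8 peaks, interval 8.78 to 273), and the highest median percentile, 81.9%. The end of 2L followed with 94.2 (22 peaks, 19.7 to 131) and 58.9%, and the end of 3R with 45.5 (33 peaks, 19.8 to 71.0) and 51.7%. The end of X was lowest, with 16.7 (14 peaks, 9.09 to 89.5) and 35.1%. These intervals are wide and overlap, so the order of the ends is that of their medians only. The end of 3L was the sparsest, with 7.76 peaks per Mb (3.35 to 15.3), and the end of 3R the most crowded, with 33.0 (22.7 to 46.3).

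The high raw scores at the end of 2L went with wide peaks. Their median width was 1088 bp, 9 of 22 were over 1200 bp wide, and none of the 22 reached a percentile of 90. The strongest scored 195 (22120681 to 22122140, 1460 bp, percentile 87.9%) and 183 (22239137 to 22240216, 1080 bp, percentile 88.7%), and the widest of all arm-end peaks, 1975 bp from 22429321 to 22431295, scored 131 (percentile 52.9%). At the end of 3L, by contrast, 4 of 8 peaks reached 90, among them those from 24457141 to 24458452 (score 273, percentile 95.8%) and from 23935544 to 23936093 (550 bp, score 258), which scored above all comparison-arm peaks within 10% of its width. The latter forms a pair, described below, with another of the 4, so these 2 come from a single place. At the end of 3R the leading peaks lay from 57899 to 59077 (score 240) and from 159442 to 160420 (score 186), and the densest arm-end window, 600001 to 650000, held 8 peaks with no score above 95.5. The end of X had no peak over 500 and up to 800 bp and none scoring from 20 to 60. Its strongest peaks, from 21501086 to 21502362 and from 21856974 to 21858691, scored 149 and 148 at percentiles of 78.3% and 71.4%. It also held the lowest score of the arm ends, 7.85 (21598542 to 21598794).

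Each end was set beside the adjoining Mb of the same arm. The median score was 164 at the end of 3L and 65.0 in the Mb before it (n = 15), and 45.5 at the end of 3R and 28.6 in the Mb after it (n = 30). On 2L it was 94.2 at the end and 18.2 in the adjoining Mb (n = 111), or 26.0 (n = 24) without a tandem block of peaks that lies there. On X the order was turned, with 16.7 at the end and 33.8 in the adjoining Mb (n = 12). By width-matched percentile the end and its adjoining Mb stood at 81.9% and 43.8% on 3L, 58.9% and 56.6% on 2L without the block (33.9% with it), 51.7% and 48.9% on 3R, and 35.1% and 45.1% on X. The intervals of end and adjoining Mb overlapped for all 4 arms in both measures, except for the percentile on 2L with the block included.

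Between the first peak inside each boundary and the first outside it lay a stretch of over 100 kb with no called peak. The first peak inside the boundary scored 15.4 on 2L, 111 on 3L, 59.9 on 3R and 149 on X, while the first peak outside scored 45.5, 129, 268 and 68.0 on the same arms.

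A pair of strong, narrow peaks 4.8 kb apart recurred on Het scaffolds, on U, at the end of 3L and on the comparison arms. This pattern was noticed in the list and not looked for beforehand. Peaks with a score of 100 or more and a percentile of 95 or more numbered 149 in the list, 32 of them among the 263. They formed 12 pairs less than 12 kb apart, and 7 of these pairs had a spacing between 4700 and 4900 bp, measured from centre to centre. Of these 7 pairs 5 were on the member sequences, 1 each on 2RHet, 3LHet, 3RHet, U and the end of 3L, and 2 were on the comparison arms, on 2L and X. Among all pairs with scores of 100 or more, the bin from 4700 to 4900 bp held 11 pairs, only 5 of them on the member sequences. The bin of 200 bp before it held 5 pairs and the bin after it held 1.

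The strong peaks of the pairs were of like width and score, which the limits used to pick them set in part. Widths were not compared for pairs picked with looser limits. The order of the 2 widths was not part of the limits. On 2RHet a peak of 510 bp (3269369 to 3269878, score 157) was followed at 4766 bp by one of 684 bp (3274048 to 3274731, score 170). On U a peak of 533 bp (1077134 to 1077666, score 177) was followed at 4771 bp by one of 665 bp (1081839 to 1082503, score 176). Whether this spacing along U is also one in the genome is not known. At the end of 3L a peak of 550 bp (score 258, above) was followed at 4793 bp by one of 706 bp (23940259 to 23940964, score 216). These 3 pairs share the order of a narrower and then a wider peak. On 3RHet the pair had the same order, with 527 bp (1342802 to 1343328, score 200) and, at 4795 bp, 715 bp (1347503 to 1348217, score 209). The pair on 2L had it too, with 530 and 672 bp at 4781 bp, while the pair on X had the opposite order, 724 and 522 bp at 4801 bp. The pair on 3LHet stood somewhat apart, with 573 bp (1986860 to 1987432, score 177) and 475 bp (1991778 to 1992252, score 165) at 4869 bp.

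Each of the 7 pairs had between 1 and 5 weak peaks inside it, and none of these scored above 17.0. Their positions were not the same in all pairs. Counted from the centre of the first strong peak, the single weak peak lay at 1770 bp on 2RHet, at 1827 bp on U and at 2858 bp on X. The end of 3L had weak peaks at 1752 and 2240 bp, 3RHet at 648 and 1596 bp, and 2L at 683, 1550 and 2209 bp. On 3LHet the 5 weak peaks were spread between 1281 and 4134 bp. Whether the pairs are copies of 1 sequence was not tested, since no release 5 sequence was used here.

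**Figure D5:**
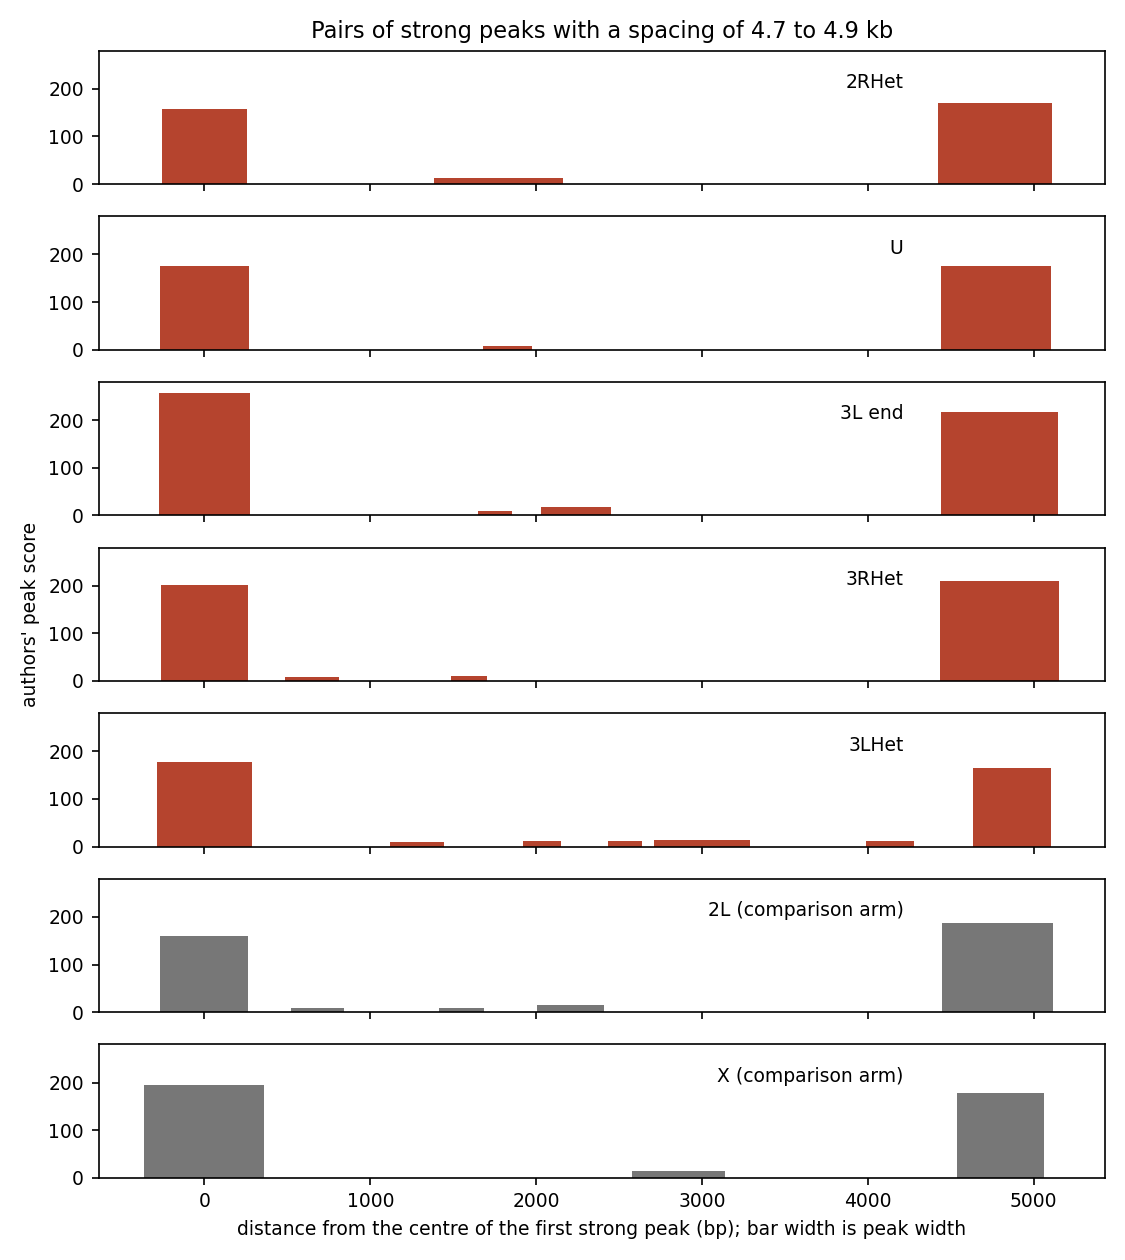
The 7 pairs of strong peaks with a spacing of 4700 to 4900 bp, drawn from the centre of the first strong peak; the height of a bar is the authors' score and its width the peak's width. The 5 pairs of the member sequences (red) and the 2 of the comparison arms (grey) have strong peaks of 475 to 724 bp at both ends and weak ones between them.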

How the data were processed

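The 4 libraries (2 ChIP, 2 input) were grouped by their titles. The measurement was the peak list deposited by the authors, on FlyBase release 5 and with MACS as the source of each peak, per the file headers. Per the submitters' processing notes, the tools were MACS2, BWA and CASAVA (1.7.0.2 and 1.7.0.3). No settings are stated there. The score of each peak is the authors' deposited score, on a scale not given in the sources used here. It was only ranked, summarised by medians and compared with limits within this list. Library depth is unknown.

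Peaks were classed by midpoint. Intervals were Clopper-Pearson for shares, exact Poisson for peaks per Mb and order-statistic for medians. The width-matched percentile gave a tied peak a weight of 0.5. Distances run from centre to centre. The members, limits and alternatives were chosen with earlier results of these data known. Regions named are the highest scoring peaks (8 on chromosome 4, 5 on the Het scaffolds, 3 on U, 2 on each arm end), the widest and lowest of each class, every peak of a sequence with 3 or fewer, the densest windows and the peaks at each boundary. Others were chosen after their values were seen. The scripts were tested on simulated data. Python 3.11.15, numpy 2.4.6, pandas 2.3.3, scipy 1.17.1 and matplotlib 3.10.9 were used.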

Additional observations from a re-analysis of the deposited data

How the results depend on the processing

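Of 96 values computed under alternatives, 77 stayed near the reported value and 19 moved. To stay meant to lie within the reported interval or, for numbers of peaks and pairs, within 1.5 times the reported number. The median width-matched percentile stayed within its interval in all its alternatives, from 89.4 to 93.5% on U (6 alternatives), 70.8 to 78.1% on chromosome 4 (7), 67.8 to 78.6% on the Het scaffolds (12) and 48.7 to 55.4% at the arm ends (10). They were other width windows, a straight-line fit of log2 score on log2 width, 2R added to the comparison arms, the tandem block on 2L left out of them, peaks joined within 1 kb, each scaffold or arm end left out and, added after the data were seen, the last 8 peaks of chromosome 4 left out.

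In the upper part of the list, cut at its median score, the shares of all 4 classes were higher. Chromosome 4 had 2.52% and the Het scaffolds 2.29%, against 1.79% and 1.74% in the whole list. The arm ends had 2.24% and U 1.24%, against 1.83% and 0.905%. The rise restates that the median score of each class lay above that of the list. Numbers of peaks, median scores and distances change with such a cut by construction, with 48 peaks left on the Het scaffolds and 47 at the arm ends. The median scores were then 141 on chromosome 4, 127 on the Het scaffolds and 95.5 at the arm ends, and the median distances to the nearest peak were 6.47, 13.1, 81.8 and 12.8 kb on chromosome 4, the Het scaffolds, U and the arm ends. Joining peaks within 1 kb moved the median score of the Het scaffolds to 110.0 and their density to 6.20 per Mb, and the median distances to 6.47, 20.6 and 11.8 kb on chromosome 4, the Het scaffolds and the arm ends. The share of the list at the arm ends was 1.26% with each boundary 250 kb nearer the centromere and 2.33% with it 250 kb nearer the telomere. The pairs spaced 4700 to 4900 bp numbered 9 with a percentile limit of 90 and 11 with none (both added after the data were seen), 5 of them on the member sequences each time. No paired analysis was possible because each peak has a single value for all libraries together. Leaving out a replicate was impossible too. Unknown depth limits what a stretch without peaks can show.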

Other observations

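The medians of 3L, 3R and X stood in the same order at their ends and on their scaffolds. By median width-matched percentile, 3L stood highest (81.9% at its end, 79.9% on 3LHet), then 3R (51.7% and 59.5%), and X lowest (35.1% and 41.0%, the last from 3 peaks). For 2L the end had 58.9% and the 2 peaks of 2LHet 56.5% and 98.5%. The 27 peaks of 2RHet had 73.2%, with no end of 2R among the arm ends to set beside it. The end of 3L, 3LHet and 3RHet each held 1 of the recurring pairs of strong peaks, and the peaks of these pairs count in the medians. The intervals of the 4 ends, of 3LHet and of 3RHet overlapped, XHet and 2LHet have too few peaks for an interval, and the order was not tested.

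The other collection of unplaced sequence, Uextra, shared the feature that set U apart. Its 439 peaks were narrow (median 371 bp) and stood at a median percentile of 77.6% (interval 74.4 to 81.9%), and 166 of them (37.8%) reached a percentile of 90, against 10.1% on the comparison arms. Its score followed width less closely, with a Spearman rho of 0.417 across peaks.

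A further pair of strong, narrow peaks on 2RHet had widths like those of the recurring pairs (659 and 523 bp, scores 169 and 186) but lay 10896 bp apart, from 680760 to 681418 and from 691724 to 692246. It passed the same limits on score and percentile, which set its likeness in width in part.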
